A study of Caenorhabditis elegans with 43 samples.

Results

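The genes described here are the numbered ceh genes of Caenorhabditis elegans, whose names stand for C. elegans homeobox. They were chosen by name, as every gene with a symbol of ceh and a number, leaving out ceh-16, ceh-20 and ceh-60. This gave 60 of the 20182 genes in the count table. A homeobox gene encodes a transcription factor that binds DNA through a homeodomain. In worms many of these factors act as terminal selectors, which switch on and keep on the genes that give a neuron class its identity, and others pattern the body axis, the pharynx, muscle or epidermis. The classes differ in what accompanies the homeodomain, such as a POU domain, a CUT domain, a SIX-type (sine oculis) domain or LIM zinc fingers.

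Whole worms of 4 strains were sampled at steps of 2 h at 25 °C after arrested L1 larvae were given food (E. coli NA22), and their RNA, freed of ribosomal RNA, was sequenced in 1 library per strain and hour. The strains were let-7(n2853) with 10 libraries from 18 to 36 h, lin-41(xe11) with 11 from 18 to 38 h, the strain carrying lin-41(xe11) and let-7(n2853) together, called the double mutant, with 11, and the wild type N2 with 11. The microRNA let-7 switches larval programmes off, and the n2853 allele weakens it at this temperature. Its main target is lin-41, which xe11 frees from part of that repression. The study followed how let-7 and LIN-41 act on other genes during larval growth to the young adult. Total counts (in M, 1e+06 reads) of a let-7(n2853) library were 22.9 to 32.9, of a lin-41(xe11) library 11.2 to 16.5, of a double mutant library 12.7 to 25.0 and of an N2 library 12.6 to 16.1. The depth of let-7(n2853) stood above the others in its median, and any batch that goes with that strain cannot be told apart from it. Levels are given in CPM, counts per 1e+06 of the library total after that total is multiplied by a normalization factor (TMM). lin-41 itself averaged 124 ± 24 CPM from 28 to 36 h in let-7(n2853) worms, 75.7 ± 25 in those of lin-41(xe11), 76.2 ± 23 in the double mutant and 35.9 ± 6.7 in N2 (SD, n = 5 each). It was higher than in N2 in each mutant (adjusted p = 1.67e-10 in let-7(n2853), 4.64e-05 for lin-41(xe11) and 1.61e-05 for the double mutant; edgeR, as below). Nothing in the labels says that the libraries of a strain are separate cultures, so p-values measure the spread between these samples only.

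The numbered homeobox genes ranged from well detected to near absent. A mean of at least 1 CPM over the 40 libraries of 18 to 36 h was asked for testing. It was reached by 35 of the 60, and by 13295 of all 20182 genes. Of the 25 that did not, 9 lay between 0.25 and 1 CPM and 16 lower. A count was present in all 43 libraries for 42 genes, and 7 (ceh-7, ceh-75, ceh-76, ceh-81, ceh-84, ceh-87 and ceh-90) never passed 3 counts in a library, so their presence was not detectable beyond that floor. Just inside the limit of 1 CPM were ceh-83 at 1.28, ceh-10 at 1.27 and ceh-19 at 1.03 CPM, and just outside were ceh-45 at 0.861, ceh-86 at 0.859 and ceh-33 at 0.827 CPM. ceh-44, a CUT gene, is not analysed here.

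Levels between genes were compared per length, as mean CPM per kb of annotated exons. ceh-100 stood first at 16.7 CPM per kb, followed by ceh-18 at 14.8, ceh-38 at 13.2, ceh-93 at 11.7 and ceh-32 at 10.3. ceh-18 is a POU factor that acts in gonadal sheath cells to restrain oocyte meiotic maturation, ceh-38 is a CUT factor found in most tissues, and ceh-32 is a SIX-class factor of head development. ceh-100 alone made up 19.4% of the summed level of the 60 genes in let-7(n2853) libraries, 20.4% in those of lin-41(xe11), 20.3% in the double mutant and 20.6% in N2, as means over libraries. At the other end, ceh-28, needed by the M4 pharyngeal neuron, reached at most 0.175 CPM, and ceh-51, a gene of the early mesoderm in the embryo, at most 0.116 CPM. Exons of 7 members overlap exons of another coding gene, among them ceh-38 with tra-2, ceh-34 with C10G8.2 and ceh-19 with mcm-3AP on the opposite strand and ceh-88 with C49C3.6 on the same strand. Whether counting used strand is not stated, so reads of these pairs may not be told apart.

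Along the N2 course most tested members declined. The slope was fitted over the 11 N2 libraries as log2 change per 2 h, together with a cosine and a sine of period 8 h for the molting rhythm, and a gene was called at an adjusted p below 0.05 (edgeR quasi-likelihood test, Benjamini-Hochberg over 13295 genes). In N2, 22 of the 35 tested members fell and 3 rose, against 27.3% of all tested genes falling and 33.0% rising. In all 25 of 35 were called, where 60.3% of all tested genes were. The median slope of the members was -0.09 and that of all tested genes 0.005 per 2 h. CPM is a share of the library, so a fall here is a lower share and not a measured loss of RNA per cell. In RNA from whole worms, fewer cells of a type and less RNA per cell cannot be told apart. Markers of the germline and oocyte, 20 genes with none at 0 throughout, rose in 19 of 20 cases, their summed level being 558 CPM at 18 h and 3442 CPM at 38 h in N2, while the 16 neuron markers fell in 14 of 16 cases, with sums of 1674 and 761 CPM at the same hours. The part of these shifts in the slopes of the homeobox genes was not tested. Of 33 tested homeobox genes with other names, such as unc-86 and lin-39, 25 fell and 3 rose in N2, set against the same shares.

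**Figure D1:**
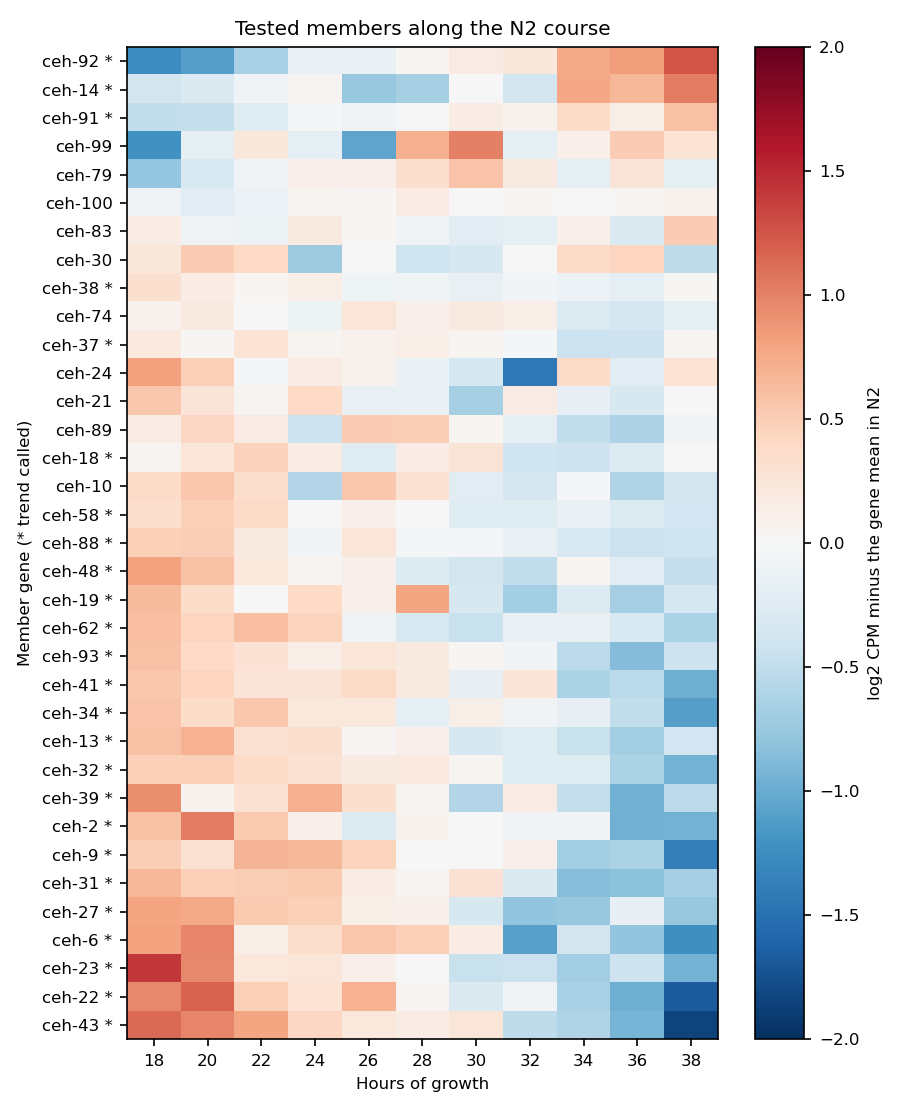
The 35 tested members along the N2 course, 1 library per column from 18 to 38 h, as log2 CPM minus the mean of the gene over N2. Genes run down by slope, and an asterisk marks the 25 called; the 3 called rises stand at the top and ceh-43, with the steepest fall, at the bottom.

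The steepest fall was that of ceh-43, the Distal-less homologue, which acts in head epidermis and dopaminergic neurons. It had 11.6, 10.4, 9.16, 7.05, 6.12, 5.84, 6.23, 3.72, 3.48, 2.76 and 1.47 CPM at the 11 successive hours of N2 from 18 to 38 h, a slope of -0.25 ± 0.03 per 2 h (standard error; adjusted p = 5.18e-05). The level declined at nearly every step, the exception being 30 h. ceh-22, the NK-2 factor that drives pharyngeal muscle genes, had 4.98, 5.78, 3.58, 3.08, 4.14, 2.67, 2.101, 2.43, 1.63, 1.300 and 0.809 CPM, a slope of -0.23 ± 0.03 (adjusted p = 1.72e-04). ceh-23, expressed in a few sensory neurons and interneurons, had 4.92, 3.58, 2.15, 2.19, 1.98, 1.84, 1.35, 1.38, 1.14, 1.38 and 0.956 CPM, a slope of -0.20 ± 0.03 (adjusted p = 1.55e-04), and most of its fall was over by 22 h. ceh-6, the POU factor of the excretory cell and of head neurons, had 2.71, 3.05, 1.69, 1.98, 2.29, 2.16, 1.73, 0.728, 1.21, 0.894 and 0.662 CPM, a slope of -0.18 ± 0.04 (adjusted p = 0.00165). Its values at 18 and 20 h were above all others of the course.

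Among members with a role in the pharynx, ceh-2, an empty spiracles homologue of pharyngeal neurons, fell by 0.16 per 2 h and ceh-34, the SIX-class factor that specifies pharyngeal neurons, fell by 0.13. ceh-19, a gene of the MC pharyngeal neurons, fell by 0.10, a call lost by DESeq2 (adjusted p = 0.11), with no limit on abundance (adjusted p = 0.0583) and without the N2 library of any one of 18, 24, 26, 30, 32, 34, 36 and 38 h, with slopes of -0.12 to -0.08. The 10 pharynx markers, all detected, fell in 6 of 10 cases in N2, with a summed level of 1697 CPM at 18 h and 779 CPM at 38 h. ceh-24, of vulval muscle and pharyngeal muscle, had a slope of -0.05 ± 0.05 that was not called (adjusted p = 0.336), with 2.71, 2.12, 1.495, 1.71, 1.61, 1.397, 1.200, 0.566, 1.99, 1.300 and 1.84 CPM.

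The anterior Hox gene ceh-13, the labial homologue, had 12.3, 13.2, 10.1, 10.5, 8.34, 8.77, 6.53, 6.95, 6.03, 5.12 and 6.25 CPM in N2 and a slope of -0.13 ± 0.02 (adjusted p = 2.39e-04). The highest values lay at 18 and 20 h, and the lowest at 36 h. ceh-32, a SIX-class gene, fell by 0.13 per 2 h, and of the BarH homologues ceh-31 fell by 0.16 while ceh-30, which keeps the male CEM neurons alive, had a slope of -0.02 ± 0.04 (adjusted p = 0.681). ceh-27 fell by 0.17 and ceh-9 by 0.16. Of 11 tested genes of the HOX and NK-like group, 9 fell and none rose, against the 27.3% of all tested genes that fell.

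In the CUT class, whose members act redundantly on genes shared by all neurons, 4 of 5 tested genes fell, against the same 27.3%. ceh-39, also a signal of X chromosome number in sex determination, fell by 0.13 per 2 h, ceh-41 by 0.12, ceh-48 by 0.10 and ceh-38 by 0.03, while ceh-21 had a slope of -0.06 ± 0.03 (adjusted p = 0.102). ceh-38 stayed between 35.1 and 49.2 CPM, and its call was lost without the N2 library of any one of 18, 20, 24, 32, 34 and 36 h, with slopes of -0.03 to -0.02. Of the paired-like genes, ceh-37, an OTX factor of the AWB olfactory neuron, fell by 0.05, a call lost without the N2 library of any one of 18, 22, 34 and 36 h (-0.05 to -0.04) and without the 8 h terms (-0.04, adjusted p = 0.0813). ceh-10, which specifies the AIY interneuron, had a slope of -0.08 ± 0.03 (adjusted p = 0.0592).

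The rises in N2 were those of ceh-92, ceh-14 and ceh-91. ceh-92 had 8.12, 9.09, 12.4, 17.6, 17.7, 20.1, 21.9, 22.7, 33.1, 34.9 and 46.5 CPM, a slope of 0.23 ± 0.02 per 2 h (adjusted p = 3.91e-06). Each value was higher than the one before it, and the 38 h level was 5.73 times that at 18 h. ceh-91 had 13.8, 14.01, 16.5, 18.9, 18.6, 19.3, 21.5, 20.5, 25.1, 21.4 and 29.1 CPM, a slope of 0.09 ± 0.01 (adjusted p = 2.26e-04). ceh-91 and ceh-92 lie on the same chromosome, at III:11616746-11623994 and III:11581600-11589133 in the WBcel235 annotation, but are not neighbours. ceh-14, a LIM factor of the AFD thermosensory neuron and of tail neurons, had 2.34, 2.46, 2.86, 3.15, 1.79, 1.91, 3.001, 2.35, 5.18, 4.79 and 6.11 CPM, a slope of 0.12 ± 0.04 (adjusted p = 0.0285). Its rise came at 34 h and after, and its call was lost without the N2 library of any one of 20, 34, 36 and 38 h (0.09 to 0.13) and with limma (0.08, adjusted p = 0.0774).

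The mutants were fitted one by one in the same way, on libraries of their own, so the 4 courses share no sample. In let-7(n2853) 20 members fell and 4 rose, where 23.6% of all tested genes fell and 25.7% rose (49.3% called in all). In lin-41(xe11) 22 fell and 3 rose, where 26.8% fell and 28.2% rose (55.0% in all). In the double mutant 23 fell and 3 rose, where 22.9% fell and 26.6% rose (49.6% in all). The direction was shared: 16 members were called falling in all 4 strains and 2, ceh-91 and ceh-92, rising in all 4, and no member was called in opposite directions in 2 strains. The share of all tested genes called alike in the 4 strains was not counted. Whether the members agree more between strains than other genes is therefore not known. A call in 1 to 3 strains was found for 14 members, and ceh-30, ceh-83 and ceh-99 were called in none.

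The let-7(n2853) slope of ceh-92 was 0.20, the lin-41(xe11) slope 0.22, the double mutant slope 0.23 and the N2 slope 0.23. At 36 h it stood at 30.5 CPM in let-7(n2853), 39.6 CPM with lin-41(xe11), 32.2 CPM in the double mutant and 34.9 CPM in N2. For ceh-43 the let-7(n2853) slope was -0.21, the lin-41(xe11) slope -0.24, the double mutant slope -0.20 and the N2 slope -0.25. At 38 h, for which let-7(n2853) has no library, ceh-92 stood at 35.9 CPM with lin-41(xe11), 39.1 CPM in the double mutant and 46.5 CPM in N2, and ceh-43 at 2.504, 3.02 and 1.47 CPM in the same strains. N2 was thus the highest of the 3 for ceh-92 and the lowest for ceh-43 at that hour. ceh-22, ceh-27, ceh-13, ceh-32 and ceh-34 were also called falling in all 4, as were ceh-6, ceh-23, ceh-37, ceh-18 and ceh-62. Of the 16 shared falls, 9 kept their call in each strain under each alternative run, as did both shared rises. The calls of ceh-37, ceh-18 and ceh-62 were among those lost in at least 1 strain.

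**Figure D2:**
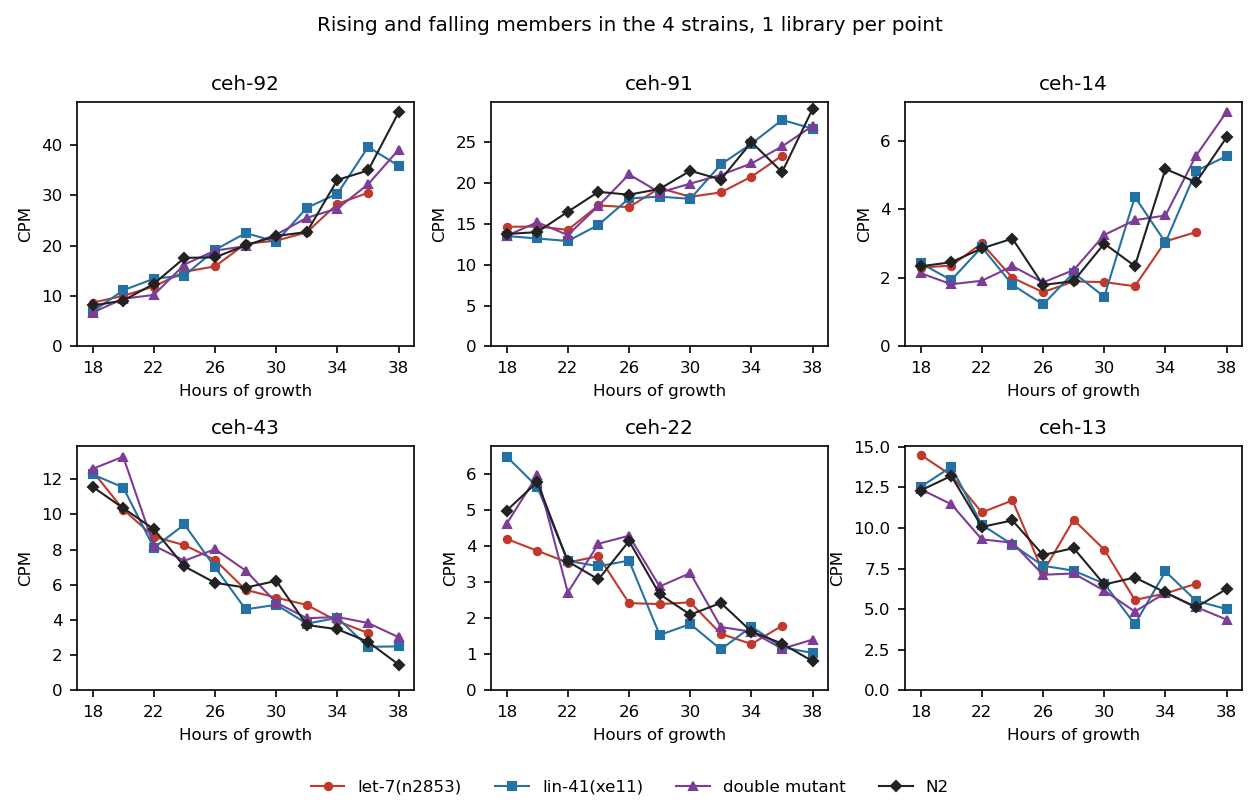
Levels in CPM (linear axis) by hour of growth for ceh-92, ceh-91 and ceh-14 (upper row) and ceh-43, ceh-22 and ceh-13 (lower row), 1 library per point, with let-7(n2853), lin-41(xe11), the double mutant and N2 as separate lines. ceh-92 rises and ceh-43 falls in each of the 4 strains, while ceh-14 in let-7(n2853) ends at 3.34 CPM, below the other strains at 36 h.

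The slope of ceh-14 in let-7(n2853), over 18 to 36 h, was 0.02 ± 0.04 and was not called (adjusted p = 0.739). Over 18 to 38 h it was 0.13 ± 0.05 with lin-41(xe11), also not called (adjusted p = 0.0665). In the double mutant it was 0.18 ± 0.03 over those hours (adjusted p = 0.0012), beside the called rise in N2. At 38 h, which let-7(n2853) lacks, ceh-14 was at its highest, with 5.56 CPM in lin-41(xe11), 6.85 in the double mutant and 6.11 in N2. The differences between the slopes of the strains were not tested. ceh-100 rose by 0.05 per 2 h in let-7(n2853) and by 0.04 in lin-41(xe11). The lin-41(xe11) call was lost without the library of any one of 20, 22, 24, 30, 34, 36 and 38 h (0.02 to 0.04) and with limma (0.03, adjusted p = 0.181). ceh-79 rose by 0.08 in let-7(n2853), a call lost without the library of any one of 18, 20, 24, 26, 34 and 36 h (0.05 to 0.09), without the 8 h terms (0.08, adjusted p = 0.25) and with limma (0.07, adjusted p = 0.0508).

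Larval genes tied to the molts rise and fall with a period of about 8 h at this temperature. Among the members ceh-18 was the one with a called rhythm in N2, where 3.13% of all tested genes had one. In let-7(n2853) it had 44.2, 38.8, 61.5, 50.9, 25.5, 37.8, 43.5, 30.4, 24.2 and 33.3 CPM from 18 to 36 h, with a fitted distance between peak and trough of 0.79 on the log2 scale (adjusted p = 0.0283). The lin-41(xe11) course had 35.2, 44.1, 53.2, 38.01, 24.8, 45.6, 38.01, 24.8, 20.8, 38.2 and 32.4 CPM, 0.91 from peak to trough (adjusted p = 0.0102). A peak at 22 h and low values at 26 and 34 h were present in the 4 strains. In the double mutant, with 38.97, 36.1, 64.5, 33.4, 30.9, 38.4, 42.1, 25.1, 24.1, 35.1 and 29.4 CPM, the distance was 0.77 and was not called (adjusted p = 0.0749). N2 had 39.3, 44.6, 52.2, 42.1, 32.1, 41.9, 45.3, 28.8, 28.2, 31.4 and 38.04 CPM, 0.59 from peak to trough (adjusted p = 0.039).

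The let-7(n2853) call of ceh-18 was lost without the library of any one of 22, 26, 28 and 34 h (0.68 to 0.80), and the N2 call without that of any one of 20, 22, 26, 30, 32, 34 and 36 h (0.57 to 0.64) and with periods of 7 or 9 h. The lin-41(xe11) call held in each of 15 alternatives. ceh-18 also fell along the course, by 0.08 to 0.09 per 2 h in the mutants and by 0.07 in N2. That call was lost in each strain when the 8 h terms were left out, with slopes of -0.09 in let-7(n2853), -0.06 for lin-41(xe11), -0.07 for the double mutant and -0.05 in N2.

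In let-7(n2853) 3 members had a called rhythm, where 25.9% of all tested genes had one, in lin-41(xe11) 1 member where 17.8% had one, and in the double mutant none where 0.0% had one. At an unadjusted p below 0.05 there were 3 of 35 members in the double mutant, where 25.3% of all tested genes were, and DESeq2 called 2 of 35, where it called 15.1% of all tested genes. Beside ceh-18, the let-7(n2853) calls were ceh-99 and ceh-79. ceh-99 had 0.713, 2.504, 6.195, 2.63, 1.99, 4.02, 4.53, 1.87, 1.85 and 3.34 CPM in let-7(n2853), 1.90 from peak to trough (adjusted p = 0.0205). It was highest at 22 h, low at 26 h and high again at 28 and 30 h. The same measure was 1.29 with lin-41(xe11) (adjusted p = 0.0508), 1.39 in the double mutant (adjusted p = 0.0872) and 1.20 in N2 (adjusted p = 0.13). Without the 22 h library the let-7(n2853) call of ceh-99 was lost (at 1.58), and so was that of ceh-79 (0.96 with all libraries) without the library of any one of 18, 22, 24, 26, 30, 34 and 36 h (0.86 to 1.04). Without the 22 h library no member had a called rhythm in let-7(n2853), and without the 26 h or the 34 h library 1 had. Without the 20 h library 1 member was called in the double mutant, and without the 26 h or the 28 h library 2 were called in lin-41(xe11).

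**Figure D3:**
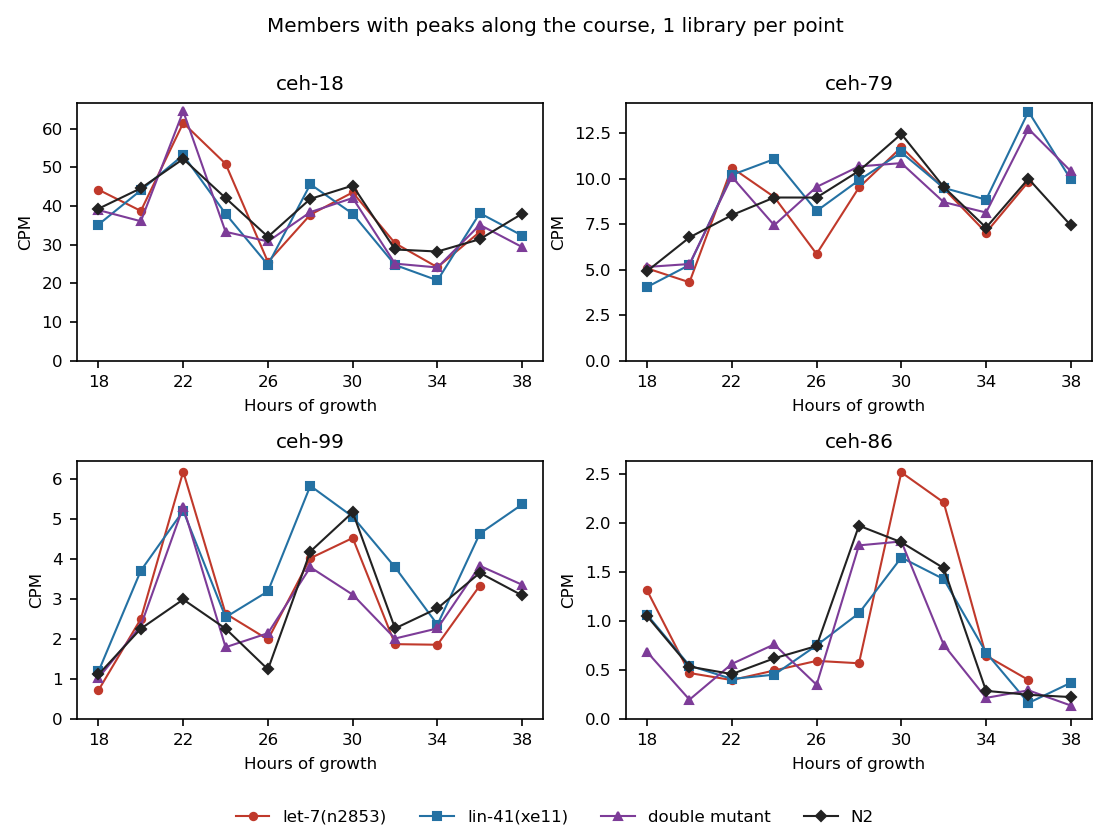
Levels in CPM (linear axis) by hour of growth for ceh-18, ceh-79, ceh-99 and ceh-86, 1 library per point, with let-7(n2853), lin-41(xe11), the double mutant and N2 as separate lines. ceh-18 is high at 22 h and low at 26 and 34 h in the 4 strains, and ceh-86 is highest at 28 or 30 h, with a lesser high value at 18 h in let-7(n2853), lin-41(xe11) and N2.

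Several members under the limit for testing had patterns of their own, chosen here after their values were seen. No test was made of the peaks themselves. ceh-86 was fitted with the limit lowered to 0.25 CPM, and no strain had a called slope or 8 h rhythm for it. The smallest adjusted p was 0.63 for a slope (double mutant) and 0.382 for a rhythm (let-7(n2853)), both by edgeR. These fits do not test for a single peak. ceh-86 was highest around 28 to 32 h: at 28, 30 and 32 h it had 0.565, 2.51 and 2.21 CPM in let-7(n2853), 1.08, 1.64 and 1.42 with lin-41(xe11), 1.77, 1.81 and 0.754 for the double mutant and 1.97, 1.800 and 1.54 in N2. At all other hours it ranged from 0.394 to 1.31 CPM in let-7(n2853), from 0.160 to 1.06 with lin-41(xe11), from 0.134 to 0.758 in the double mutant and from 0.221 to 1.05 in N2. The upper end lay at 18 h in let-7(n2853), lin-41(xe11) and N2 and at 24 h in the double mutant, so the first hour was also high in 3 of 4 strains, and the lin-41(xe11) values at 18 and 28 h were nearly equal. In let-7(n2853) the 28 h value was still within that range and the high values came at 30 and 32 h. Placed on the N2 course from all tested genes, that 28 h library had an age of 26.4 h, and the 28 h library of the double mutant 26.9 h. The part of age in the course of ceh-86 was not tested. ceh-49, a CUT gene, had 24 counts at 38 h in lin-41(xe11), 14 in the double mutant and 20 in N2, where no earlier library had more than 3, 8 and 5 counts. let-7(n2853) has no 38 h library. ceh-82 had 4 counts at 38 h in lin-41(xe11) and in N2 and 2 counts at 36 h in let-7(n2853), and 0 in every other library.

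With the limit lowered to 0.25 CPM, 9 more members could be fitted. In let-7(n2853) 7 of the 9 fell, where 23.0% of all genes tested at that limit fell. The lin-41(xe11) course had 7 falling, where 24.5% of all genes fell, the double mutant 8, where 22.0% did, and N2 6, where 26.0% did. Those that fell in N2 were ceh-12, the HB9 homologue of VB motor neurons (-0.27 per 2 h), ceh-17, the Phox2 homologue of the ALA neuron (-0.18), ceh-33, a SIX-class gene (-0.16), ceh-36, the OTX factor of the AWC and ASE neurons (-0.23), ceh-45, a goosecoid homologue (-0.22), and ceh-57 (-0.30). None of the 9 rose in any of the 4 strains, and none was called between a mutant and N2 in either window. How many of all genes rose or differed at this lower limit is not given here. At the limit of 1 CPM, between 25.7% and 33.0% of all tested genes rose, depending on the strain. The let-7(n2853) contrasts with N2 called 18.5% of them in the early window and 23.0% in the late one. The other mutants had at most 0.88%. With 9 genes, a count of 0 says little about differences from N2.

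Between strains, the members were compared within an early window (18 to 26 h) and a late window (28 to 36 h), with n = 5 libraries per strain in each and the hour as a block. In the late window 7 of 35 tested members differed in let-7(n2853) from N2, 6 higher and 1 lower, where 23.0% of all tested genes differed (10.4% higher and 12.6% lower). The members' share was thus near that of all genes. The median log2 fold change was -0.01 over the members and -0.02 over all tested genes. Placed on the N2 course by all tested genes, the let-7(n2853) libraries of this window had an age minus hour of -0.78 h on average (SD 0.60). The N2 libraries had 0.12 h (SD 0.42), but the course was fitted to these same libraries, so their small offset and spread follow from the fit. In let-7(n2853), 12 of the 20 germline and oocyte markers and 3 of the 10 pharynx markers were lower than in N2. Germline sums were 1066 to 2020 CPM in let-7(n2853) and 1111 to 2712 CPM in N2. Of the 16 neuron markers 2 were higher and 3 lower. The part of the marker shifts in the homeobox results was not tested. A fit with that age in place of the hour ended 7 calls of let-7(n2853) in all, given with each gene below.

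ceh-23, a falling gene in N2, was higher in let-7(n2853). It had 3.06, 2.83, 2.47, 2.65 and 2.23 CPM in let-7(n2853) from 28 to 36 h and 1.84, 1.35, 1.38, 1.14 and 1.38 CPM in N2. The lowest let-7(n2853) value was above the highest N2 value. The log2 fold change was 0.90 ± 0.20 (adjusted p = 0.0017). It was higher already in the early window, with 5.51, 4.31, 2.97, 2.81 and 4.81 CPM in let-7(n2853) and 4.92, 3.58, 2.15, 2.19 and 1.98 CPM in N2, 0.52 ± 0.17 (adjusted p = 0.0331); this early call was lost without the libraries of any one of 20, 24 and 26 h (0.33 to 0.59). In lin-41(xe11) the late difference from N2 was -0.30 ± 0.24 (adjusted p = 0.731) and in the double mutant -0.37 ± 0.24 (adjusted p = 0.567).

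ceh-93 had 23.01, 26.2, 20.4, 19.9 and 19.8 CPM in let-7(n2853) from 28 to 36 h and 19.8, 18.1, 16.8, 12.2 and 9.59 CPM in N2. The groups barely separated, the lowest let-7(n2853) value and the highest N2 value both rounding to 19.8, and let-7(n2853) was higher at 5 of 5 hours. The log2 fold change was 0.54 ± 0.10 (adjusted p = 4.55e-04), and this call held in each of 19 alternatives. In the early window ceh-93 averaged 24.2 ± 1.4 CPM in let-7(n2853) and 22.1 ± 2.6 CPM in N2 (SD, n = 5 each), 0.14 ± 0.10 (adjusted p = 0.357). The test of late minus early gave 0.39 ± 0.14 (adjusted p = 0.491).

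Of the CUT genes, ceh-41 had 7.72, 6.87, 7.66, 6.32 and 5.63 CPM in let-7(n2853) and 6.61, 5.18, 6.95, 3.76 and 3.98 CPM in N2, 0.39 ± 0.10 (adjusted p = 0.00743), and ceh-39 had 2.23, 1.84, 2.06, 1.67 and 1.399 CPM in let-7(n2853) and 1.65, 1.05, 1.78, 1.14 and 0.812 CPM in N2, 0.52 ± 0.16 (adjusted p = 0.0193). Both were higher in let-7(n2853) at 5 of 5 hours with groups that overlapped. With the age of the library in place of the hour, both calls were lost, at 0.20 for ceh-41 and 0.40 for ceh-39 (adjusted p = 0.199 and 0.0852), and that of ceh-39 also without the libraries of any one of 30 and 36 h (0.46 to 0.48) and by DESeq2 (adjusted p = 0.0543). ceh-39 differed from N2 by 0.54 ± 0.17 in the double mutant (adjusted p = 0.165) and by 0.38 ± 0.18 in lin-41(xe11) (adjusted p = 0.529).

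ceh-37, the OTX factor, had 19.02, 17.6, 18.98, 17.9 and 12.2 CPM in let-7(n2853) in the early window and 13.5, 12.02, 14.4, 12.3 and 12.6 CPM in N2, 0.40 ± 0.10 (adjusted p = 0.00429), and 16.5, 14.1, 12.7, 12.8 and 11.6 CPM in let-7(n2853) and 13.02, 12.3, 11.7, 8.801 and 8.94 CPM in N2 in the late one, 0.31 ± 0.10 (adjusted p = 0.0239). It was higher at 9 of 10 hours, with 26 h, its low value in let-7(n2853), as the exception. The late call was lost without the libraries of either of 34 and 36 h (0.26 to 0.30) and with a late window from 30 h (0.30, adjusted p = 0.0528). ceh-89 had 3.43, 3.33, 3.14, 3.82 and 2.91 CPM in let-7(n2853) and 3.49, 2.55, 2.18, 1.77 and 1.62 CPM in N2, 0.51 ± 0.17 (adjusted p = 0.0274). Its call was lost without the libraries of any one of 30, 32, 34 and 36 h (0.38 to 0.55), with the age in place of the hour (0.48, adjusted p = 0.0505) and with let-7(n2853) thinned to the N2 depth (0.46, adjusted p = 0.0694).

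ceh-14, the LIM factor, was the late gene lower in let-7(n2853). It had 1.896, 1.88, 1.76, 3.06 and 3.34 CPM in let-7(n2853) and 1.91, 3.001, 2.35, 5.18 and 4.79 CPM in N2, -0.51 ± 0.18 (adjusted p = 0.0435). let-7(n2853) was lower at 5 of 5 hours, with groups that overlapped, and the gap was widest at 34 and 36 h, the 28 h values being nearly equal. The call was lost without the libraries of any one of 18, 20, 26, 30, 34 and 36 h (-0.51 to -0.42), with the age in place of the hour (-0.37, adjusted p = 0.163), with let-7(n2853) thinned (-0.50, adjusted p = 0.0803), with limma (-0.34, adjusted p = 0.106) and with the limit on abundance at 0.25 CPM (-0.49, adjusted p = 0.054) or with no limit (-0.48, adjusted p = 0.0713).

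**Figure D4:**
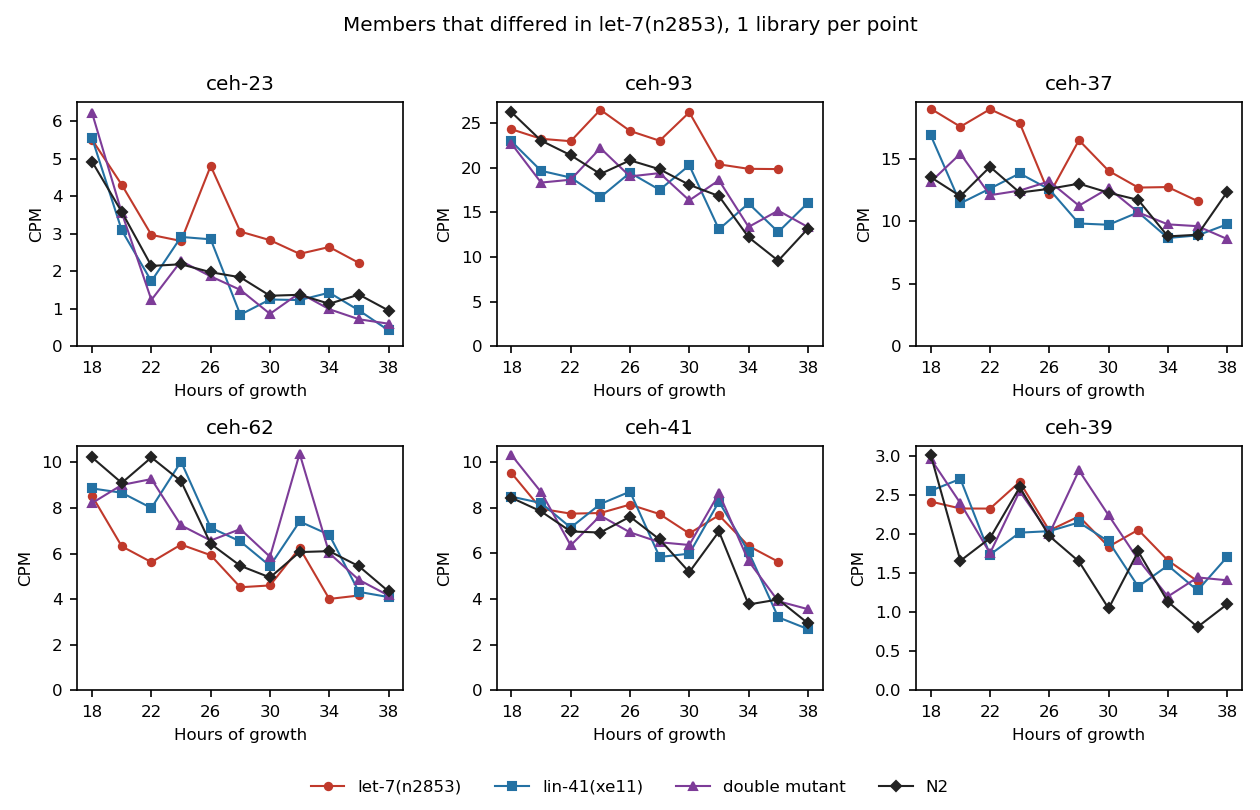
Levels in CPM (linear axis) by hour of growth for ceh-23, ceh-93, ceh-37, ceh-62, ceh-41 and ceh-39, 1 library per point, with let-7(n2853), lin-41(xe11), the double mutant and N2 as separate lines. The let-7(n2853) line lies above N2 at each late hour for ceh-23, ceh-93, ceh-37, ceh-41 and ceh-39, and below N2 at each early hour for ceh-62.

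In the early window 5 of 35 members differed in let-7(n2853) from N2, 2 higher (ceh-23 and ceh-37) and 3 lower, where 18.5% of all tested genes differed (8.79% higher and 9.73% lower). The age minus hour of the libraries of this window averaged -0.80 h (SD 1.42) in let-7(n2853) and -0.14 h (SD 0.36) in N2, whose own libraries set the scale. In lin-41(xe11) age minus hour averaged -1.02 h (SD 1.74), with its 24 h library placed at 19.9 h. The 24 h library was placed at 21 h in let-7(n2853), 25.3 h in the double mutant and 23.3 h in N2, though the hour block pairs these 4. The slopes and rhythms along each strain were fitted by hour and not by age. ceh-62 had 8.52, 6.32, 5.62, 6.39 and 5.93 CPM in let-7(n2853) and 10.2, 9.09, 10.2, 9.17 and 6.43 CPM in N2, -0.45 ± 0.11 (adjusted p = 0.00557). It was lower at 5 of 5 hours. ceh-38 had 37.3, 31.3, 42.4, 40.4 and 29.9 CPM in let-7(n2853) and 49.2, 43.9, 40.8, 43.3 and 37.3 CPM in N2, -0.24 ± 0.08 (adjusted p = 0.0269), and ceh-100 had 55.96, 57.8, 65.00, 72.3 and 59.3 CPM in let-7(n2853) and 70.5, 64.5, 68.8, 77.4 and 75.8 CPM in N2, -0.20 ± 0.07 (adjusted p = 0.0425). The call of ceh-38 was lost without the libraries of any one of 18, 20 and 26 h (-0.21 to -0.18), and that of ceh-100 without those of any one of 18, 20, 26 and 34 h (-0.21 to -0.15). With limma both calls were lost, that of ceh-38 at -0.17 (adjusted p = 0.101) and that of ceh-100 at -0.13 (adjusted p = 0.261), as they were with no limit on abundance, at -0.20 and -0.16 (adjusted p = 0.0782 and 0.136). The ceh-100 call was also lost with the age in place of the hour (-0.20, adjusted p = 0.0643). With let-7(n2853) thinned to the N2 depth the calls of ceh-23, ceh-38 and ceh-100 were lost, at 0.50, -0.21 and -0.19. Without the libraries of 18, 20 or 26 h, 3, 2 and 3 members were called in this window. Without those of 30, 34 or 36 h, 4, 4 and 3 were called in the late window.

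The effects of the windows were also compared directly, as late minus early. No member was called in let-7(n2853), where 0.0827% of all tested genes were (3 of 35 members at an unadjusted p below 0.05, where 7.09% of all tested genes were, and none called by DESeq2). So none of the late differences above was shown to be larger than the early one.

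Against the double mutant, let-7(n2853) differed late in 9 of 35 members, 6 higher and 3 lower, where 23.0% of all tested genes differed (11.4% higher and 11.6% lower). This comparison shares its let-7(n2853) libraries with the one against N2. ceh-23 had the 3.06, 2.83, 2.47, 2.65 and 2.23 CPM given above in let-7(n2853), and 1.51, 0.868, 1.42, 0.991 and 0.723 CPM in the double mutant, 1.27 ± 0.21 (adjusted p = 7.63e-05). The groups did not overlap, and the call held in each of 19 alternatives. ceh-93 had 19.4, 16.3, 18.6, 13.4 and 15.2 CPM in the double mutant, below let-7(n2853) by a log2 fold change of 0.40 ± 0.10 (adjusted p = 0.00546), and ceh-37 differed by 0.32 ± 0.10 (adjusted p = 0.0184). ceh-74 had 6.19, 6.83, 7.44, 5.94 and 5.203 CPM in let-7(n2853) and 5.44, 4.56, 6.197, 4.03 and 3.69 CPM in the double mutant, 0.41 ± 0.11 (adjusted p = 0.00579). It was higher in let-7(n2853) at 5 of 5 hours.

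ceh-13, the labial homologue, had 10.5, 8.67, 5.57, 5.98 and 6.57 CPM in let-7(n2853) and 7.204, 6.15, 4.86, 6.01 and 5.14 CPM in the double mutant, 0.33 ± 0.10 (adjusted p = 0.0184). ceh-10, the AIY gene, had 1.297, 1.17, 0.972, 0.908 and 0.861 CPM in let-7(n2853) and 0.655, 0.9402, 0.586, 0.708 and 0.506 CPM in the double mutant, 0.62 ± 0.22 (adjusted p = 0.0442), higher at 5 of 5 hours. ceh-14 had 2.23, 3.25, 3.69, 3.82 and 5.57 CPM in the double mutant, so let-7(n2853) was lower at 5 of 5 hours, -0.63 ± 0.18 (adjusted p = 0.0121). ceh-62 was lower, at -0.52 ± 0.12 (adjusted p = 0.00204) and ceh-83, at about 1 CPM, at -0.64 ± 0.20 (adjusted p = 0.0224).

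Calls of the let-7(n2853) and double mutant comparison that were lost when the libraries of any one of the hours named were left out were those of ceh-10 (20, 28, 30, 32, 34 and 36 h, 0.53 to 0.72), ceh-13 (28, 30 and 36 h, 0.28 to 0.32), ceh-37 (28 and 34 h, 0.27 to 0.30), ceh-83 (28 and 34 h, -0.56 to -0.50) and ceh-14 (36 h, -0.59). Of the marker lists, 13 of 20 germline and oocyte genes were lower in let-7(n2853) than in the double mutant, and 6 of 16 neuron genes were higher and 3 lower. The part of these in the results for the homeobox genes was not tested. With the age in place of the hour the calls of ceh-10 (0.58, adjusted p = 0.088) and ceh-13 (0.31, adjusted p = 0.0907) were lost. That of ceh-10 was also lost by DESeq2, with let-7(n2853) thinned and with no limit on abundance (adjusted p = 0.102, 0.0857 and 0.0637). With the limit on abundance lowered to 0.25 CPM, 2 of the 9 added members were higher in let-7(n2853), ceh-17 at 0.90 ± 0.28 (adjusted p = 0.0261) and ceh-40 at 1.25 ± 0.39 (adjusted p = 0.0216), where 20.5% of all genes tested at that limit differed. Their late counts in the double mutant were near the floor of 3, with 9, 7, 2, 3 and 3 for ceh-17 and 3, 2, 4, 1 and 1 for ceh-40. Against N2, ceh-40 was at -0.08 ± 0.31 in let-7(n2853) and -1.33 ± 0.42 in the double mutant (adjusted p = 0.927 and 0.19). The same values for ceh-17 were 0.51 ± 0.27 and -0.39 ± 0.33 (adjusted p = 0.206 and 0.753).

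In lin-41(xe11) and the double mutant no member was called against N2 in either window or in late minus early, nor by DESeq2. In the late window 0.361% of all tested genes were called in lin-41(xe11) and 0.88% for the double mutant. The early shares were 0.0677% for lin-41(xe11) and 0.143% for the double mutant, and those of late minus early 0.0226% and 0.00752%, so calls were rare over all genes too. At an unadjusted p below 0.05 lin-41(xe11) had 2 of 35 members late, 3 early and 2 in late minus early, where 10.1%, 6.38% and 4.90% of all tested genes were. The double mutant had 4, 0 and 4 members, where 12.1%, 6.79% and 4.13% of all tested genes were. The smallest late p in lin-41(xe11) was that of ceh-74, with 4.46, 5.52, 4.56, 2.78 and 3.84 CPM in lin-41(xe11) and 6.22, 6.602, 6.39, 4.83 and 4.55 CPM in N2, -0.43 ± 0.11 (adjusted p = 0.105). In the double mutant ceh-10 was at -0.71 ± 0.24 (adjusted p = 0.186). lin-41(xe11) values of ceh-74 were lower than those of N2 at each late hour. Between the double mutant and lin-41(xe11) no member was called either, where 0.0903% of all tested genes were, nor by DESeq2. At an unadjusted p below 0.05 there were 4 of 35 members and 4.19% of all tested genes. A p that misses the threshold does not show that levels were alike.

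**Figure D5:**
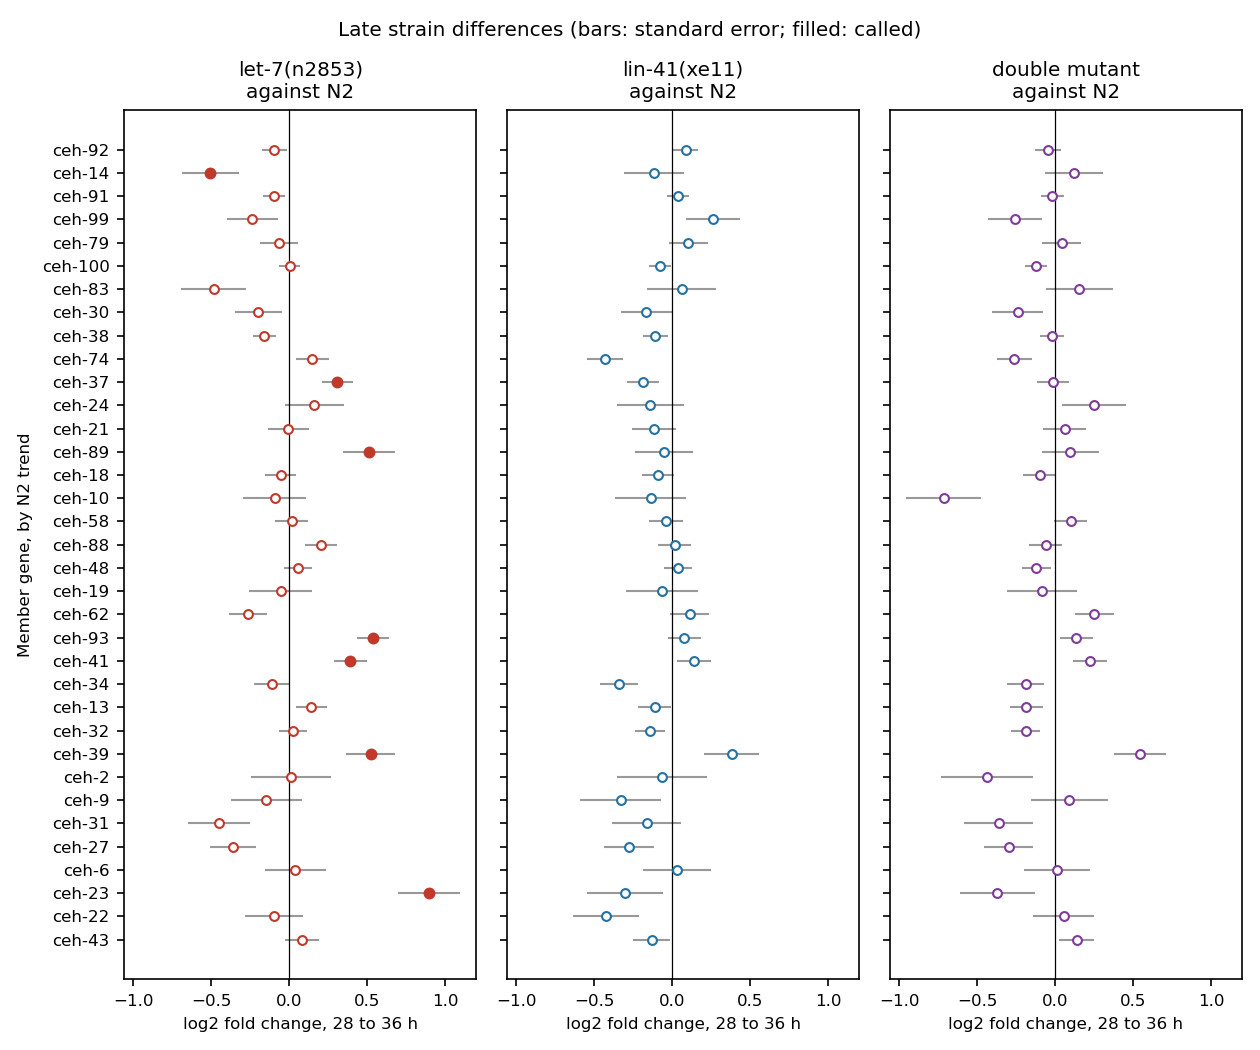
Log2 fold changes from 28 to 36 h for the 35 tested members in let-7(n2853) (left), lin-41(xe11) (middle) and the double mutant (right), each against N2, with standard errors as bars. Filled points are called at an adjusted p below 0.05: 7 in let-7(n2853) and none in the other panels.

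Homeobox genes with other names, a list of 39 of which 33 were tested, gave 7 late calls in let-7(n2853) against N2, 4 higher and 3 lower, where 23.0% of all tested genes were called. The list gave none in lin-41(xe11) or the double mutant (edgeR), with 3 genes each at an unadjusted p below 0.05, where 10.1% and 12.1% of all tested genes were. With the smallest p were unc-62, the Meis homologue, at -0.32 ± 0.06 (adjusted p = 4.13e-04), cog-1, an NKX6-type factor, at -0.48 ± 0.13 (adjusted p = 0.00593), the Hox gene mab-5 at 0.37 ± 0.11 (adjusted p = 0.0159) and nsy-7 at 0.27 ± 0.08 (adjusted p = 0.016). In the early window there were 4 calls, 1 higher and 3 lower (18.5% of all tested genes), and against the double mutant 5, 1 higher and 4 lower (23.0% of all tested genes). In N2 the falls of the list with the smallest p were those of unc-62 at -0.12 ± 0.01, zag-1 at -0.27 ± 0.02, alr-1 at -0.24 ± 0.02 and unc-86, the POU factor of touch neurons, at -0.23 ± 0.02 per 2 h.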

How the data were processed

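Per the labels' protocols, total RNA of whole worms was taken with Tri-Reagent, freed of ribosomal RNA (Ribo-Zero) and made into libraries with the ScriptSeq v2 kit. The authors deposited whole-number read counts per gene and library, and log2 values of the same libraries, which the values show to be log2 of counts scaled to a common total plus 8. The aligner, genome build, annotation and use of strand in counting are not given in the sources used here. Gene names were matched by gene ID, and positions and exon lengths come from the Ensembl 115 annotation of WBcel235. CPM values are counts per 1e+06 of the library total multiplied by its TMM factor. That factor ran from 0.903 to 1.10, and narrow gaps between libraries depend on it. For the limits on mean CPM in the tests, the plain library total was used.

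Counts were tested with edgeR 4.0.16 (R 4.3.3; TMM, quasi-likelihood) on 13295 genes with a mean of at least 1 CPM over 40 libraries. The strain fit had the hour as a block and a term for each mutant and window, with 24 residual degrees of freedom; each hour holds 1 library per strain, so it pairs libraries by time of sampling only. The fits along 1 strain had a slope, a cosine and a sine of 8 h, with 7 residual degrees of freedom in N2. p-values were adjusted by Benjamini-Hochberg over all tested genes, threshold 0.05. Alternatives used DESeq2 1.42.0, limma 3.58.1 on rescaled log2 values, other filters, thinned counts, other periods and windows, no block, and each hour left out. For limma the deposited values were taken out of log2, rescaled to the same total per library and logged again with 8 added. The added 8 makes the fold changes of genes with low counts smaller. The age in place of the hour and the fits to the mutants' own courses were added after the data had been seen. Members, gene lists and tests were chosen with earlier results of these data known. Genes were named by size of slope or by smallest p among those called, by level, and by known role.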

Additional observations from a re-analysis of the deposited data

Results flagged for a closer look

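Among 84 groups of 5 libraries, 7 held a library far from the other 4. The groups came from 14 genes by strain and window, but not from every strain and window of each. A strain with no flag here may therefore not have been checked. Chance alone would flag about 1 in 20 groups of like replicates. The libraries of a group are successive hours of a course, so the 7 cannot be weighed against that rate. In let-7(n2853), ceh-37 was at 12.2 CPM at 26 h, with the nearest other early library at 17.6 CPM, ceh-41 at 9.51 CPM at 18 h (nearest 8.13), ceh-62 at 8.52 CPM at 18 h (nearest 6.39) and, in the late window, ceh-62 at 6.24 CPM at 32 h (nearest 4.60). In the double mutant ceh-100 was at 53.3 CPM at 32 h, with the nearest late library at 72.1 CPM. In N2 ceh-100 was at 83.3 CPM at 28 h (nearest 75.6) and ceh-10 at 0.821 CPM at 24 h (nearest 1.56).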

How the results depend on the processing

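Of 126 results for single members, none changed sign under an alternative and 77 kept their call under each one run. The strain calls rest most on the replicate block: with no replicate block, let-7(n2853) had 1 late call against N2 (ceh-93), 0 early calls and 1 late call against the double mutant (ceh-23), so the other calls need the hour in the fit. Early calls of let-7(n2853) numbered 2 with its counts thinned to the N2 depth and 3 with no filter, and with no filter 60 members entered the tests. The members with an 8 h rhythm numbered 2 in lin-41(xe11) with DESeq2 size factors, with DESeq2 and with limma, 2 in the double mutant with DESeq2, and 0 in N2 with a period of 7 or 9 h. Against the double mutant, ceh-83 was also lost with limma (-0.34, adjusted p = 0.0724), and ceh-10, ceh-13, ceh-37 and ceh-83 with a late window from 30 h.

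Leaving out 1 hour or library at a time gave 20 to 25 called trends for let-7(n2853), 21 to 27 for lin-41(xe11), 18 to 28 for the double mutant and 21 to 25 for N2. Called rhythms ranged from 0 to 3 for let-7(n2853), 1 to 2 for lin-41(xe11), 0 to 1 for the double mutant and 0 to 1 for N2. Strain calls of let-7(n2853) ranged from 3 to 7 late, 2 to 6 early and 6 to 9 against the double mutant, and the other strain contrasts stayed at 0. Depth limits the 25 members below 1 CPM and the 7 that never passed 3 counts.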

Other observations

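Several members are neighbours in the genome, and their N2 courses were not always alike. No test was made of the differences between neighbours. On chromosome X the CUT genes ceh-41, ceh-21 and ceh-39 lie close together on 1 strand (X:1846608-1848675, X:1848779-1852736 and X:1853874-1856172, WBcel235). They had slopes of -0.12, -0.06 and -0.13 log2 units per 2 h. ceh-41 and ceh-21 are adjacent, with 103 bp between them, while ceh-21 and ceh-39 are not adjacent in the order of coding genes by start. The BarH homologues ceh-30 and ceh-31, with 3096 bp between them, had slopes of -0.02 and -0.16, and the called fall of ceh-31 was not matched by a call for ceh-30. The SIX-class genes ceh-34 and ceh-33, 3616 bp apart, both fell, by 0.13 and 0.16, the second at the limit of 0.25 CPM, and so did the OTX genes ceh-37 and ceh-36, by 0.05 and 0.23, 10805 bp apart. ceh-57 and ceh-58 on chromosome II fell by 0.30 and 0.08.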
